A study of Mus musculus with 9 samples.

Results

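The voltage-gated calcium channels, the release channels of the internal calcium stores and the SERCA pumps that refill those stores were followed as 1 set. Its 35 genes were chosen by name, with earlier results of these data known. Of these, 34 were found on the arrays among 19694 named genes. The exception was Ryr3, for which no probe was matched through the gene table. The arrays held lung RNA of male C57BL/6 mice, labelled at a single color. The labels give every animal as 10 weeks old, which the methods give as the age on entering the experiment, so the age at which an irradiated lung was taken is not known here. There were 4 arrays of unirradiated animals, Control 1 to 4, and 5 arrays of irradiated left lung tissue, Irradiated 1 to 5. Mice were anesthetized with zoletil and rompun while they were irradiated. The labels give neither the dose, the region of the lung nor the time of an irradiated array, so the spread among the 5 irradiated arrays includes any such differences. RNA from triplicate experiments was pooled before labeling, and nothing states which animals each array holds, so p-values measure only the spread between these 9 arrays.

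Calcium enters a cell through pore subunits of the Cacna1 family, which open when the membrane depolarizes and carry accessory alpha2delta, beta and gamma subunits. Ryanodine receptors (Ryr) and inositol trisphosphate receptors (Itpr) release calcium from the endoplasmic or sarcoplasmic reticulum, and the SERCA pumps (Atp2a) return it there at the cost of ATP. Many members are split by tissue: Cacna1s, Cacng1, Ryr1 and Atp2a1 serve skeletal muscle, Ryr2 and the main form of Atp2a2 serve the heart, and Cacna1a and Cacna1b serve nerve endings. In lung, calcium signaling sets the tone of airway and vascular smooth muscle, mucus and surfactant secretion and the activation of immune cells, and in mice cardiac muscle also surrounds the pulmonary veins.

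Values below are log2 of the background-corrected spot signal after quantile normalization, for the brightest probe of a gene, and differences are irradiated minus control on that log2 scale. "Well above background" is the mark that the scanner software gives to a spot. The lung markers matched the label: the epithelial genes Sftpc, Sftpb, Sftpa1, Scgb1a1, Ager, Foxj1 and Cldn18 were well above background on all 9 arrays. Their mean stayed within -0.16 to 0.15 of the control mean on every array. Both striated muscle lists set 1 array apart. The mean of 10 cardiac muscle genes lay at -5.38 relative to the control mean on Irradiated 1 and between -0.58 and 0.57 on the other 8 arrays. The mean of 10 skeletal muscle genes lay at 4.26 on Control 3 and between -1.79 and -0.89 on the other 8 arrays. The differences of members that stood apart on either array are therefore given with and without it. In whole tissue, fewer cells of a type and less RNA per cell cannot be told apart.

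Most of the set was measurable in lung. The brightest probe was well above background on all 9 arrays for 27 of the 34 genes, where the share among all genes was 77.4%. The 7 others were Cacna1b, Cacna1e and 5 of the 8 gamma subunits. Among the 27 genes, the median SD within groups was 0.308, against 0.226 for all genes measured as well. None of the 34 genes passed an adjusted p of 0.05 in limma, where 0.416% of all genes did, with 0.264% higher and 0.152% lower in irradiated arrays. At an unadjusted p under 0.05 there were 4 of the 34 genes, Cacna1a and Cacnb3 with higher and Cacna1i and Atp2a3 with lower values, against 12.3% of all genes. The differences ran from -0.55 to 0.54 with a median of -0.12, and 12 were above and 22 below 0. The median over all genes was 0.008. Without Irradiated 1, 1 of the 34 genes passed the threshold, Atp2a3 with lower values, where 1.65% of all genes passed and 0.569% passed with lower values. Arrays were also paired by image position, as described below. With the pair as a fixed block 1 of the 34 genes passed, against 3.84% of all genes. With the pair as a random block 4 passed, against 9.44% of all genes.

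**Figure D1:**
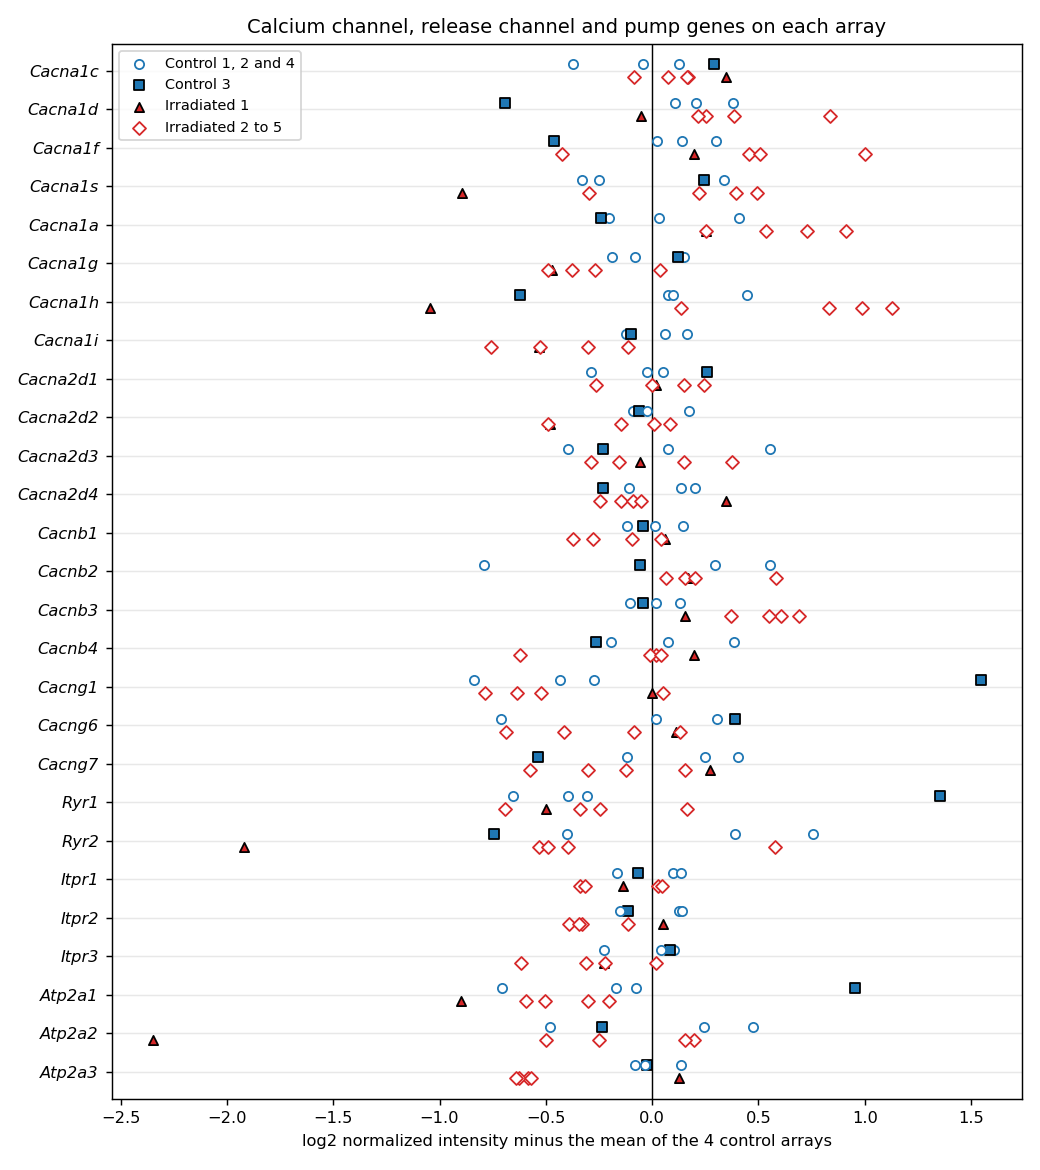
Each point is 1 array, plotted as log2 normalized intensity minus the mean of the 4 control arrays, for the 27 genes well above background on every array. Control arrays are the upper points of a gene and irradiated arrays the lower ones. Irradiated 1 lies far to the left for Atp2a2 and Ryr2, and Control 3 far to the right for Cacng1, Ryr1 and Atp2a1, while Irradiated 2 to 5 lie close together left of all controls for Atp2a3.

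Of the SERCA pumps, Atp2a3 lay below every control on 4 of the 5 irradiated arrays, while Atp2a2 was lowest on Irradiated 1 and Atp2a1 was highest on Control 3. Atp2a3 encodes SERCA3, the pump of platelets, lymphocytes, endothelium and some epithelia. Its values were 12.58, 12.80, 12.64 and 12.63 on Control 1 to 4. They were 12.79, 12.08, 12.03, 12.09 and 12.02 on Irradiated 1 to 5. Irradiated 2 to 5 thus lay below every control array and within 0.07 of each other, whereas Irradiated 1 lay at the upper end of the controls. Over all 9 arrays the difference was -0.46 (SE 0.16, limma adjusted p = 0.319). Without Irradiated 1 it was -0.60 (SE 0.08, adjusted p = 0.0151), which is 1.52-fold lower, and the groups then did not overlap, as for 3.74% of all genes in that direction. It was -0.61 (SE 0.09, adjusted p = 0.0437) when Control 3 was left out as well, where 0.559% of all genes passed. Irradiated 1 was the 1 irradiated array not below every control. The smaller SE, the call and the separation therefore came with leaving out the value that went against the difference.

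Immune, platelet and endothelial markers were measured beside Atp2a3. The mean of 5 platelet genes ran from -0.15 to 0.27 on the control arrays and from -1.02 to -0.25 on the irradiated arrays, with -0.49 on Irradiated 1, where Atp2a3 was at its highest irradiated value. All 5 platelet genes had lower irradiated means, and Ppbp, a platelet chemokine, differed by -0.99 (limma adjusted p = 0.051, or 0.044 without Irradiated 1). Ppbp was the 1 gene of the list past the threshold without Irradiated 1, where 0.569% of all genes passed with lower values. On Control 3, 4 of the 5 platelet genes were at their highest. Without Control 3 all 5 differences were still negative and none passed the threshold. The mean of 9 T and B cell genes ran from -0.20 to 0.22 on the controls and from -0.43 to 0.09 on the irradiated arrays. The mean of 6 endothelial genes ran from -0.10 to 0.13 on the controls, was 0.11 on Irradiated 1 and ran from -0.38 to -0.13 on Irradiated 2 to 5. Like Atp2a3, this mean lay below every control on Irradiated 2 to 5 and within the control range on Irradiated 1, with 4 of the 6 genes lower and none past the threshold. Every gene of these 3 lists was well above background on all 9 arrays. Their part in the Atp2a3 difference was not tested.

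The arrays also fall into pairs by the position of the first spot row on the scanner image. Control 1 lay nearest to Irradiated 2, Control 2 to Irradiated 3, Control 3 to Irradiated 4 and Control 4 to Irradiated 5, and Irradiated 1 had no such partner. What the arrays of a pair share is not given in the sources used here. Within the 4 pairs, Atp2a3 differed by -0.50, -0.76, -0.55 and -0.61, lower in 4 of 4. With the pair as a fixed block, which leaves Irradiated 1 without weight, the difference was -0.60 (limma adjusted p = 0.0273). Under this block 3.84% of all genes passed. The 4 pairs and the fixed block rest on the arrays that remain without Irradiated 1, so they add no further evidence. With the pair as a random block the difference was -0.55 (adjusted p = 0.0146), and 9.44% of all genes passed. The same sign in 4 of 4 pairs was not particular to Atp2a3. Cacna1a, Cacna1d, Cacna1f, Cacna1h, Cacna1s, Cacnb3 and Cacng2 were higher in 4 of 4 pairs. Cacna1b, Cacna1g, Cacna1i, Cacng5, Itpr2 and Itpr3 were lower in 4 of 4 pairs. No share over all genes is given here.

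Atp2a2 encodes SERCA2, the pump of the heart, of slow muscle and, in another splice form, of most other cells. Its values were 13.08, 14.03, 13.32 and 13.80 on the control arrays and 11.21, 13.06, 13.76, 13.71 and 13.31 on the irradiated arrays. Irradiated 1 was the lowest of the 9, more than 4-fold below the mean of the other irradiated arrays, and the groups otherwise overlapped. The difference of -0.55 (SE 0.48, adjusted p = 0.806) became -0.10 (SE 0.23, adjusted p = 0.968) without Irradiated 1. A second, dimmer probe of Atp2a2 was also lowest on Irradiated 1, at 8.67 against 9.19 to 10.22 on the other 8 arrays.

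Atp2a1 encodes SERCA1, the pump of fast skeletal muscle. The 4 control values were 8.27, 7.74, 9.40 and 8.36, and the 5 irradiated values were 7.54, 8.14, 7.85, 7.94 and 8.24. Control 3 was the highest of the 9 arrays and Irradiated 1 the lowest, and the groups overlapped. The difference was -0.50 (SE 0.30, adjusted p = 0.665) with all arrays and -0.08 (SE 0.21, adjusted p = 0.954) without Irradiated 1 and Control 3. All 3 pumps had negative differences under each of the 21 alternative settings, though a called difference was reached for Atp2a3 alone.

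The ryanodine receptors repeated the pattern of the muscle pumps. Ryr1, the release channel of skeletal muscle, had values of 8.18, 7.92, 9.93 and 8.27 on the control arrays and 8.08, 8.33, 8.74, 7.88 and 8.23 on the irradiated arrays. Control 3 was 1.81 above the mean of the other controls. The difference turned from -0.32 (SE 0.38, adjusted p = 0.873) with all arrays to 0.17 (SE 0.22, adjusted p = 0.891) without Irradiated 1 and Control 3. Ryr2, the release channel of heart muscle, had control values of 8.74, 9.90, 8.39 and 9.53 and irradiated values of 7.22, 8.74, 9.72, 8.61 and 8.65. Irradiated 1 was 1.71 below the mean of the other irradiated arrays, which lay inside the control range. The difference was -0.55 (SE 0.47, adjusted p = 0.799) and, without Irradiated 1, -0.21 (SE 0.37, adjusted p = 0.948). Control 3 was the lowest control for Ryr2, and the difference was -0.80 without Control 3 and -0.46 without both arrays (adjusted p = 0.731 and 0.778).

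**Figure D2:**
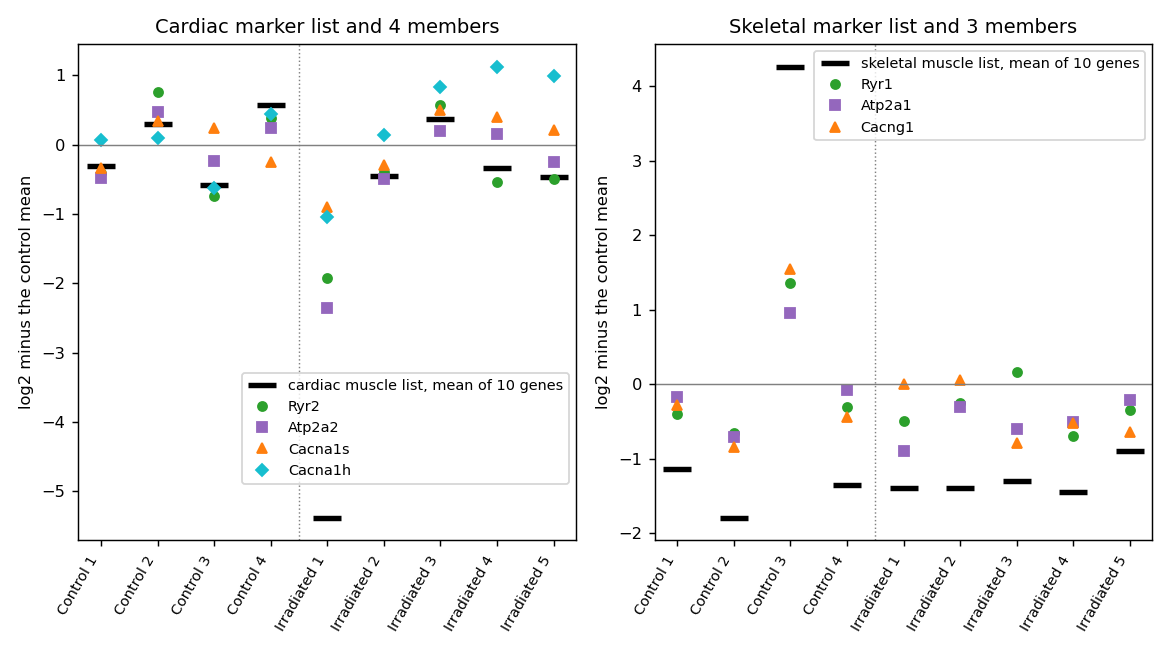
Values on each array relative to the control mean, on the log2 scale. Black bars are the mean of 10 cardiac (left) or 10 skeletal (right) marker genes, and points are single members. Ryr2, Atp2a2, Cacna1s and Cacna1h are lowest on Irradiated 1, where the cardiac list is at -5.38. Of these, Cacna1s serves skeletal muscle. The heart members Cacna1c and Cacnb2, not shown, are not lowest there, and Cacna1c is at its highest value. Ryr1, Atp2a1 and Cacng1 are highest on Control 3, where the skeletal list is at 4.26. Atp2a1 is also lowest on Irradiated 1.

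On Irradiated 1, 4 of the 34 genes lay at least 1 below the mean of the other irradiated arrays, where 5.05% of all genes did. They were Cacna1s, Cacna1h, Ryr2 and Atp2a2. Cacna1c, the pore of heart and smooth muscle, was instead at its highest value on Irradiated 1, at 5.86. Cacnb2, the main subunit of heart, was there only 0.08 below the mean of the other irradiated arrays. On Control 3, 4 of the 34 genes lay at least 1 above the mean of the other controls (Cacng1, Cacng3, Ryr1 and Atp2a1), where 3.46% of all genes did. All 10 cardiac markers were lowest on Irradiated 1, and 9 of them were well above background on every array. There Myh6, the heart myosin, was at 7.33 against 15.87 to 16.98 elsewhere. Csrp3 was not well above background on Irradiated 1, so the mean of -5.38 for the cardiac list has no exact size. All 10 skeletal markers were highest on Control 3, with Tnnc2, the fast troponin C, at 15.63 against 7.27 to 8.13 elsewhere. Of these 10, 5 were well above background on every array, and Myh1, Myh2, Myh4, Mylpf and Actn3 were not on 2 to 7 of the arrays, so the mean of 4.26 for the list has no exact size. The share of these muscle signals in the values of the members was not tested.

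Promoters of the 2 ryanodine receptors and of 2 pumps are shown here because these genes carry the 3 patterns above: Ryr1 and Atp2a1 were high on Control 3, Ryr2 was low on Irradiated 1, and Atp2a3 was lower on Irradiated 2 to 5. They are RefSeq sequences of the mouse assembly GRCm38.p6, each with 250 bases before and 50 bases from the annotated start of the gene, written 5' to 3' on the strand of the gene. Capitals mark matches on either strand to 1 of 5 motifs. The E-box, bound by helix-loop-helix factors, was searched as CANNTG, and the element bound by TEAD factors in muscle genes, known as MCAT, was searched as CATTCC. The site of GATA-type factors was searched with the letters AGATAA. The GC box of Sp-type factors was searched as GGGCGG. The TATA box near the start of transcription was searched as the letters TATAAA.
Ryr1, chr7:29125102-29125401, minus strand: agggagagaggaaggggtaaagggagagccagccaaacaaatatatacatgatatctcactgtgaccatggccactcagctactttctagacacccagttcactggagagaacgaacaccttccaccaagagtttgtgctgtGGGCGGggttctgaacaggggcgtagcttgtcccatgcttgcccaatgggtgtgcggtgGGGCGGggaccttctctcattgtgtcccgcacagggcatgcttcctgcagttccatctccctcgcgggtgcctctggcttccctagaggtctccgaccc
Atp2a1, chr7:126463024-126463323, minus strand: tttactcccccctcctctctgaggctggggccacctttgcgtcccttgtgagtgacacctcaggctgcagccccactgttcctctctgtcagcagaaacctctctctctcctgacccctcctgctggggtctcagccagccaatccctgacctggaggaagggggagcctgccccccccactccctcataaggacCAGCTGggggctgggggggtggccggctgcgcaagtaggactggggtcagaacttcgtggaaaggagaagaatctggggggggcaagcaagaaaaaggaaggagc
Ryr2, chr13:12106896-12107195, minus strand: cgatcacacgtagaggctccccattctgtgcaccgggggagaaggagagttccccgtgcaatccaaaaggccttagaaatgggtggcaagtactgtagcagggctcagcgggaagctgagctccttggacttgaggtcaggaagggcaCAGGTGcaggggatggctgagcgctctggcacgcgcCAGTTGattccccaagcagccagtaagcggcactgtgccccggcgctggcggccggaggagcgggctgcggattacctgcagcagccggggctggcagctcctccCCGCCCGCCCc
Atp2a3, chr11:72960919-72961218, plus strand: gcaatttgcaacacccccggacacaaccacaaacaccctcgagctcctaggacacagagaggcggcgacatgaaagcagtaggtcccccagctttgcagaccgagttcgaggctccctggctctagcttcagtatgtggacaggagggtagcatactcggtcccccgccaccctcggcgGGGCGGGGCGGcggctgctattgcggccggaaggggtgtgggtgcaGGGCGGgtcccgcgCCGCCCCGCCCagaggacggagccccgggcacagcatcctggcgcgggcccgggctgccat

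The Atp2a3 window held 5 GC boxes, of which 2 pairs share bases, and no match to the other 4 motifs. The Ryr1 window held 2 GC boxes, the Ryr2 window 2 overlapping GC boxes and 2 E-boxes, and the Atp2a1 window 1 E-box. No MCAT match stood in any of these 4 windows. The promoter table held 35 windows of 26 members and 32851 windows in all. A GC box was in 57.1% of the members' windows and in 35.7% of all windows, and an E-box was in 68.6% and 72.3%. An MCAT match was in 17.1% and 14.7%, a TATA box in 2.86% and 13.6%, and a GATA match in 0% and 11.2%. The median GC content was 62.7% in the members' windows and 52.7% in all windows. These are matches of letters and say nothing of binding.

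The inositol trisphosphate receptors, which open in response to hormones and transmitters, varied little between the arrays. Itpr1 had values of 13.44, 13.70, 13.53 and 13.74 on the control arrays and 13.47, 13.26, 13.28, 13.63 and 13.65 on the irradiated arrays. Itpr2 had values of 13.96, 13.98, 13.73 and 13.69 on the control arrays and 13.89, 13.73, 13.51, 13.45 and 13.49 on the irradiated arrays. Itpr3 had values of 13.65, 13.98, 13.96 and 13.92 on the control arrays and 13.65, 13.26, 13.57, 13.89 and 13.66 on the irradiated arrays. The groups overlapped for each of them. The mean of the 3 genes, relative to the control mean, ran from -0.09 to 0.11 on the control arrays. On the irradiated arrays it ran from -0.36 to -0.10, narrowly below every control, and this separation was not tested. It was not particular to these receptors. The mean of the 3 SERCA pumps ran from -0.24 to 0.23 on the control arrays and from -1.04 to -0.31 on the irradiated arrays. The differences of Itpr1, Itpr2 and Itpr3 were -0.14 (adjusted p = 0.765), -0.23 (0.574) and -0.27 (0.527), and none passed the threshold. Like other members, Itpr2 and Itpr3 were lower on the irradiated array in 4 of 4 position pairs, with adjusted p of 0.0806 and 0.118 under the fixed block. All 3 differences were negative under each of the 21 alternatives.

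Smooth muscle markers were measured beside these receptors and the pumps, and all 8 were well above background on every array. Their mean ran from -0.19 to 0.22 on the control arrays. It was -0.81 on Irradiated 1, -0.10 on Irradiated 2, -0.30 on Irradiated 3, -0.45 on Irradiated 4 and -0.36 on Irradiated 5. Irradiated 2 alone lay within the control range, and Irradiated 1 was the lowest array. All 8 genes had lower irradiated means, with a median difference of -0.44, or -0.33 without Irradiated 1, and none passed the threshold with all arrays. With the position pair as a fixed block, Acta2, Actg2 and Myh11, contractile proteins of smooth muscle, differed by -0.44, -0.44 and -0.49 (limma adjusted p = 0.0301, 0.0455 and 0.0478), where 1.56% of all genes passed with lower values. The part of smooth muscle in the values of the receptors and pumps was not tested.

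Among the high-voltage pore subunits, Cacna1a had the largest difference. It encodes the P/Q-type pore of nerve endings. Its values were 7.97, 8.58, 7.93 and 8.21 on the control arrays and 8.42, 8.42, 8.90, 8.71 and 9.08 on the irradiated arrays. Only Control 2 reached into the irradiated range. The difference of 0.54 (SE 0.20, adjusted p = 0.357) did not pass the threshold. It was higher in 4 of 4 position pairs, by 0.45, 0.32, 0.78 and 0.88, and with the pair as a random block it was 0.58 (adjusted p = 0.0256), a setting under which 5.64% of all genes passed with higher values. With the pair as a fixed block it was 0.61 and did not pass (adjusted p = 0.0742). A second probe differed by 0.38 (adjusted p = 0.683). The mean of 8 nerve and neuroendocrine genes ran from -0.07 to 0.07 on the controls and from -0.26 to 0.25 on the irradiated arrays, and its part in this difference was not tested.

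The N-type pore Cacna1b and the R-type pore Cacna1e, which also belong to nerve cells, were near the limit of detection. Cacna1b was well above background on 2 arrays, with values of 2.99 to 3.98 on the controls and 2.61 to 3.63 on the irradiated arrays. Cacna1e was well above background on 1 irradiated array and on no control array, with values of 1.98 to 3.96 and 1.98 to 2.66. At such levels their differences have no exact size.

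The L-type pores carry the slow calcium current of muscle and endocrine cells. Cacna1c, the pore of heart and smooth muscle, had values of 5.64, 5.14, 5.80 and 5.47 on the control arrays and 5.86, 5.59, 5.43, 5.68 and 5.67 on the irradiated arrays. Cacna1d, a pore of pacemaker and endocrine cells, had values of 9.06, 9.16, 8.26 and 9.33 and of 8.90, 9.20, 9.34, 9.16 and 9.78. These 2 genes overlapped between the groups, with differences of 0.13 (adjusted p = 0.907), which turned negative when arrays were scaled to their 75th percentile, and 0.33 (0.753). Cacna1f, the pore of photoreceptors, had values of 5.73, 5.62, 5.13 and 5.89 on the control arrays and 5.79, 6.60, 6.05, 5.17 and 6.10 on the irradiated arrays. Cacna1s, the voltage sensor of skeletal muscle, had values of 10.63, 11.30, 11.21 and 10.72 and of 10.07, 10.67, 11.46, 11.36 and 11.18. Cacna1s was lowest on Irradiated 1 and, unlike Ryr1, Atp2a1 and Cacng1, was not highest on Control 3. Its difference was -0.02 with all arrays and 0.20 without Irradiated 1 (adjusted p = 0.866), and a second probe gave 0.43 with all arrays (0.747). On that second probe Irradiated 1, at 6.79, was just above Control 1 at 6.78, and Control 3 was the highest control at 7.66. For Cacna1f the difference was 0.35 (0.797). Control 3 was the lowest control for Cacna1d and Cacna1f, and without it their differences were 0.096 (0.956) and 0.19 (0.945).

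The T-type pores open at low voltage. Cacna1i had values of 9.39, 9.68, 9.41 and 9.57 on the control arrays and 8.98, 8.98, 9.40, 9.21 and 8.76 on the irradiated arrays. Irradiated 3 alone reached the lowest control value. The difference was -0.45 (SE 0.15, adjusted p = 0.299), and a second probe gave -0.60 (adjusted p = 0.383). The pair differences were -0.41, -0.27, -0.20 and -0.82, and with the pair as a random block the difference was -0.43 (adjusted p = 0.0376), where 3.8% of all genes passed with lower values. With the pair as a fixed block it was -0.43 too and did not pass (adjusted p = 0.139).

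Cacna1h, a T-type pore of heart, kidney and nerve, had values of 8.81, 8.84, 8.12 and 9.19 on the control arrays and 7.70, 8.88, 9.57, 9.87 and 9.73 on the irradiated arrays. The irradiated arrays spanned 2.17, with Irradiated 1 below all controls and Irradiated 3, 4 and 5 above all controls. The difference was 0.41 (SE 0.43, adjusted p = 0.849), or 0.77 (SE 0.28, adjusted p = 0.309) without Irradiated 1. It was 0.20 without Control 3, the lowest control, and 0.56 without both arrays (adjusted p = 0.963 and 0.495). A second probe gave -0.03 and was not low on Irradiated 1. The 2 probes therefore disagree for this gene. Cacna1g, a T-type pore of brain and heart, had values of 6.77, 6.43, 6.74 and 6.54 on the control arrays and 6.15, 6.35, 6.24, 6.65 and 6.13 on the irradiated arrays. Its groups overlapped on Irradiated 4 only, and the difference was -0.31 (adjusted p = 0.637).

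**Figure D3:**
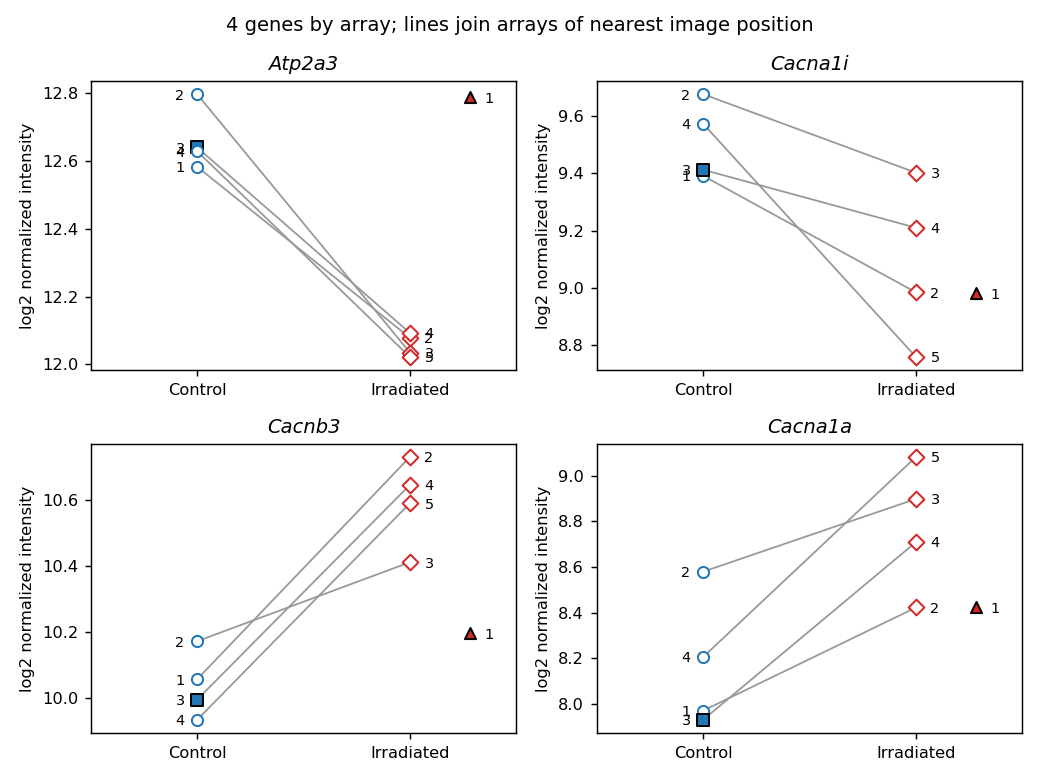
Log2 normalized intensity of Atp2a3, Cacna1i, Cacnb3 and Cacna1a on each array, numbered as in the labels, with lines joining arrays of nearest image position. Atp2a3 and Cacna1i are lower and Cacnb3 and Cacna1a higher on the irradiated array in 4 of 4 pairs, and the unpaired Irradiated 1 (filled triangle, set to the right) lies with the controls for Atp2a3 at 12.79. Members not shown also had the same sign in 4 of 4 pairs.

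The beta subunits bind inside the cell, bring the pore to the membrane and tune its opening. Cacnb3 was the one gene of the 34 whose groups did not overlap with all arrays, where 3.39% of all genes were separated in that direction. Its values were 10.06, 10.17, 10.00 and 9.93 on the control arrays and 10.20, 10.73, 10.41, 10.64 and 10.59 on the irradiated arrays. Irradiated 1 lay just above Control 2, the highest control, and the other 4 irradiated arrays lay further above it. The difference was 0.47 (SE 0.12, adjusted p = 0.182), which is 1.39-fold higher and did not pass the threshold. It came to 0.55 without Irradiated 1 (adjusted p = 0.0514), to 0.55 with the pair as a fixed block (adjusted p = 0.0559) and to 0.52 with the pair as a random block (adjusted p = 0.0106). The pair differences were 0.67, 0.24, 0.65 and 0.65.

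The other beta subunits showed no such separation. Cacnb1, the subunit of the skeletal muscle channel, had values of 8.11, 8.37, 8.18 and 8.24 on the control arrays and 8.29, 8.13, 7.85, 7.95 and 8.27 on the irradiated arrays. Cacnb2, the main subunit of heart, had values of 7.10, 6.01, 6.74 and 7.36 and of 6.97, 6.96, 7.00, 6.86 and 7.38. Cacnb4, a subunit of brain, had values of 6.60, 6.33, 6.26 and 6.91 and of 6.72, 6.54, 5.90, 6.51 and 6.57. Their groups overlapped, and their differences were -0.13 (adjusted p = 0.859), 0.23 (0.865) and -0.07 (0.972). Cacnb1, unlike Ryr1 and Atp2a1, did not stand out on Control 3, where it was 0.06 below the mean of the other controls.

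The alpha2delta subunits lie outside the membrane and raise the number of channels at the surface. Cacna2d1, the subunit bound by gabapentin, had values of 10.85, 11.18, 11.39 and 11.11 on the control arrays and 11.15, 10.87, 11.13, 11.37 and 11.28 on the irradiated arrays. Cacna2d2 had values of 8.59, 8.85, 8.61 and 8.65 and of 8.19, 8.53, 8.68, 8.76 and 8.19. Of the 4 subunits, Cacna2d2 had the largest difference with all arrays, -0.20 (SE 0.16, adjusted p = 0.772), with Irradiated 1, 2 and 5 below all controls. Without Irradiated 1 and Control 3 its difference was -0.16, and that of Cacna2d4 was larger at -0.21. Cacna2d3 had values of 5.80, 5.33, 5.49 and 6.28 on the control arrays and 5.67, 5.57, 5.87, 5.44 and 6.10 on the irradiated arrays. Cacna2d4, known from the retina, had values of 8.89, 8.95, 8.52 and 8.64 and of 9.10, 8.60, 8.66, 8.51 and 8.69. The differences of Cacna2d1, Cacna2d3 and Cacna2d4 were 0.03, 0.01 and -0.04, with adjusted p of 0.988, 1.00 and 0.984, and that of Cacna2d3 turned negative under 3 other background or scaling settings.

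Of the gamma subunits, 3 were well above background on every array. Cacng1, a subunit of the skeletal muscle channel, had values of 5.86, 5.30, 7.68 and 5.71 on the control arrays and 6.14, 6.19, 5.35, 5.61 and 5.50 on the irradiated arrays. It was 2.06 higher on Control 3 than the mean of the other controls. The difference turned from -0.38 (SE 0.45, adjusted p = 0.873) with all arrays to 0.04 (SE 0.28, adjusted p = 0.986) without Irradiated 1 and Control 3. Cacng6, also a muscle subunit, had values of 7.84, 8.12, 8.21 and 7.11 and of 7.93, 7.73, 7.40, 7.95 and 7.13. Cacng7, which also binds glutamate receptors, had values of 6.30, 6.46, 5.52 and 5.94 and of 6.33, 6.21, 5.93, 5.75 and 5.48. Cacng6 and Cacng7 overlapped between the groups, with differences of -0.19 (0.901) and -0.11 (0.956).

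The remaining gamma subunits are partners of AMPA-type glutamate receptors in brain and were dim. Cacng2 (stargazin) was well above background on 4 arrays, with values of 3.21, 2.39, 3.17 and 5.29 on the control arrays and 4.63, 3.78, 2.53, 3.45 and 5.36 on the irradiated arrays. Cacng3 was well above background on 2 arrays, with values of 1.91, 3.02, 4.99 and 3.35 and of 4.68, 1.87, 3.63, 3.07 and 2.47. Both spread over more than 2 log2 units within each group, and neither separated the groups. Cacng5 was well above background on 1 array, with values of 2.37, 3.00, 2.71 and 3.17 and of 4.61, 2.31, 1.97, 2.71 and 2.11. Cacng8 was well above background on 3 arrays, with values of 4.32, 3.36, 4.08 and 4.33 and of 4.14, 4.37, 2.66, 3.76 and 5.68. Cacng4 was well above background on no array, with values of 2.24 to 2.94 on the controls and 1.94 to 3.26 on the irradiated arrays. The order of such dim values carries little, and adjusted p over these 5 genes ranged from 0.913 to 0.995.

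**Figure D4:**
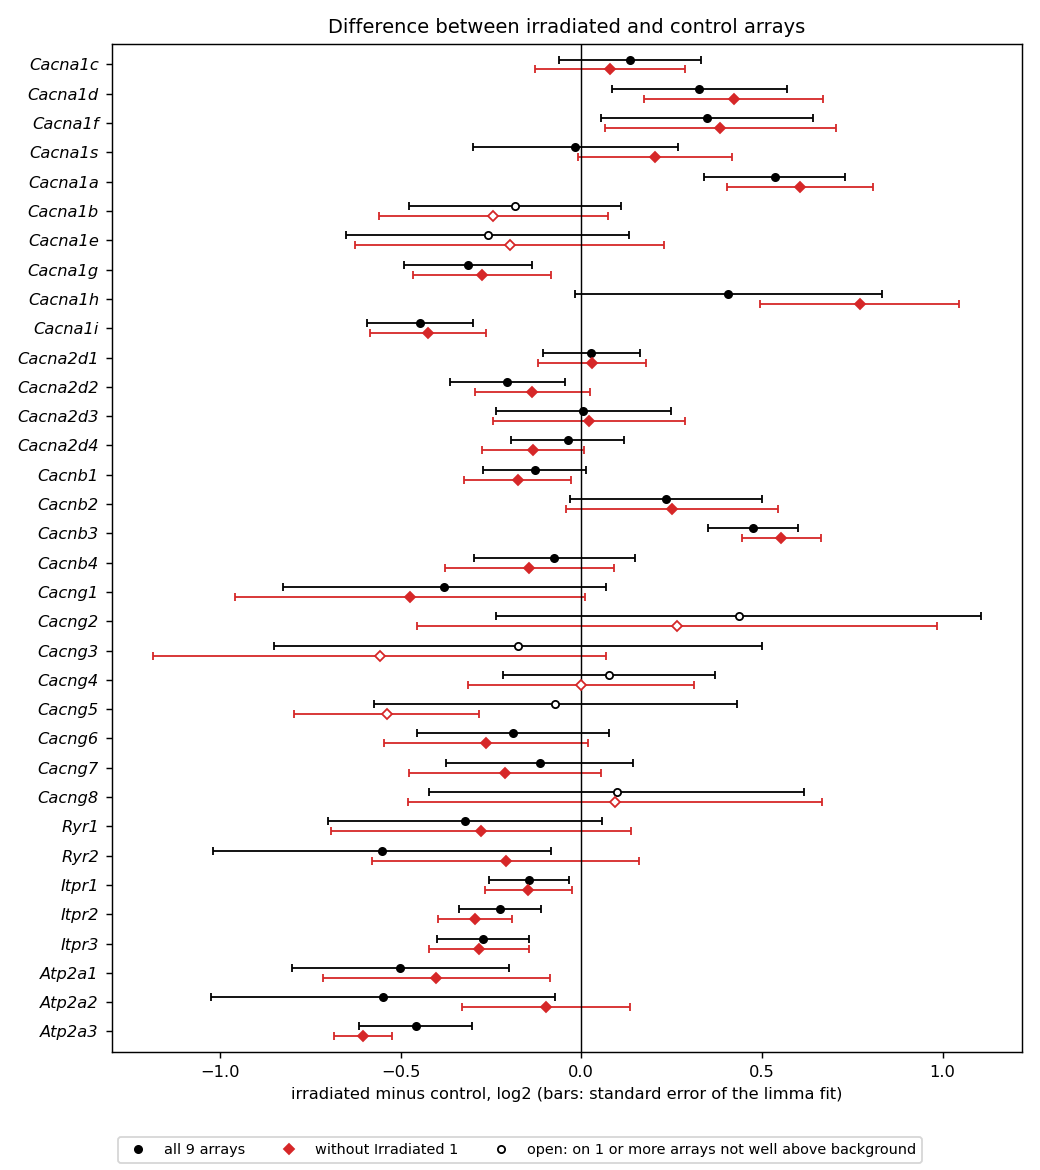
Difference between irradiated and control arrays on the log2 scale for all 34 genes, with the standard error of the limma fit, over all 9 arrays (black circles) and without Irradiated 1 (red diamonds). Open symbols mark genes not well above background on every array. Without Irradiated 1, Atp2a3 is at -0.60 and passed the threshold, while Ryr2 and Atp2a2 move toward 0.

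The members were set beside 47 other genes of calcium handling, all found on the arrays and 37 of them well above background on every array. None passed the threshold with all arrays in limma, 7 had an unadjusted p under 0.05 (14.9%, against 12.3% of all genes), and the median difference was -0.046. Within a group, 8 of the 47 genes spanned over 2 log2 units. The greatest span was that of Sln. Casq2 and Pln also spanned widely, but their low ends, like that of Sln, were not well above background and have no exact size. Sln (sarcolipin), a peptide that slows SERCA in atrial and skeletal muscle, had values of 14.03, 14.68, 14.59 and 15.00 on the control arrays and 5.12, 14.05, 15.13, 14.24 and 14.10 on the irradiated arrays. Pln (phospholamban), the brake of SERCA2 in heart, had values of 8.56, 9.54, 8.47 and 10.07 and of 4.37, 8.36, 9.79, 8.92 and 9.03. Both genes were not well above background on Irradiated 1, the array on which Atp2a2 and Ryr2 were lowest.

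Casq2, the calcium-binding protein of the heart's stores, had values of 8.55, 9.70, 8.66 and 9.53 on the control arrays and 3.79, 8.41, 9.63, 8.94 and 8.56 on the irradiated arrays. Hrc, a store protein that binds triadin, had values of 10.88, 11.95, 11.59 and 11.83 and of 8.01, 10.75, 11.71, 11.17 and 10.85. Trdn (triadin), the anchor between store and ryanodine receptor, had values of 7.49, 8.30, 9.09 and 7.95 and of 4.01, 7.39, 8.63, 7.77 and 7.26. All 3 genes were lowest on Irradiated 1, where Casq2 and Trdn were not well above background, and Trdn was highest on Control 3 too. Casq1, the skeletal form of calsequestrin, had values of 4.43, 3.74, 7.51 and 4.53 and of 5.03, 4.34, 4.15, 3.07 and 3.15, highest on Control 3. Without Irradiated 1, the differences of Pln, Sln, Casq2, Hrc and Trdn were -0.13, -0.19, -0.22, -0.44 and -0.45, and none passed the threshold. With all arrays they lay between -2.05 and -1.06, values that for Pln, Sln, Casq2 and Trdn include a signal not well above background on Irradiated 1 and so have no exact size. Without Irradiated 1 and Control 3 they were -0.36, -0.19, -0.37, -0.43 and -0.15. The difference of Casq1 was -1.11 with all arrays (adjusted p = 0.707), -0.29 without Control 3 (0.945) and -0.56 without both arrays (0.75). Casq1 was well above background on 3 arrays only, so these differences have no exact size.

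**Figure D5:**
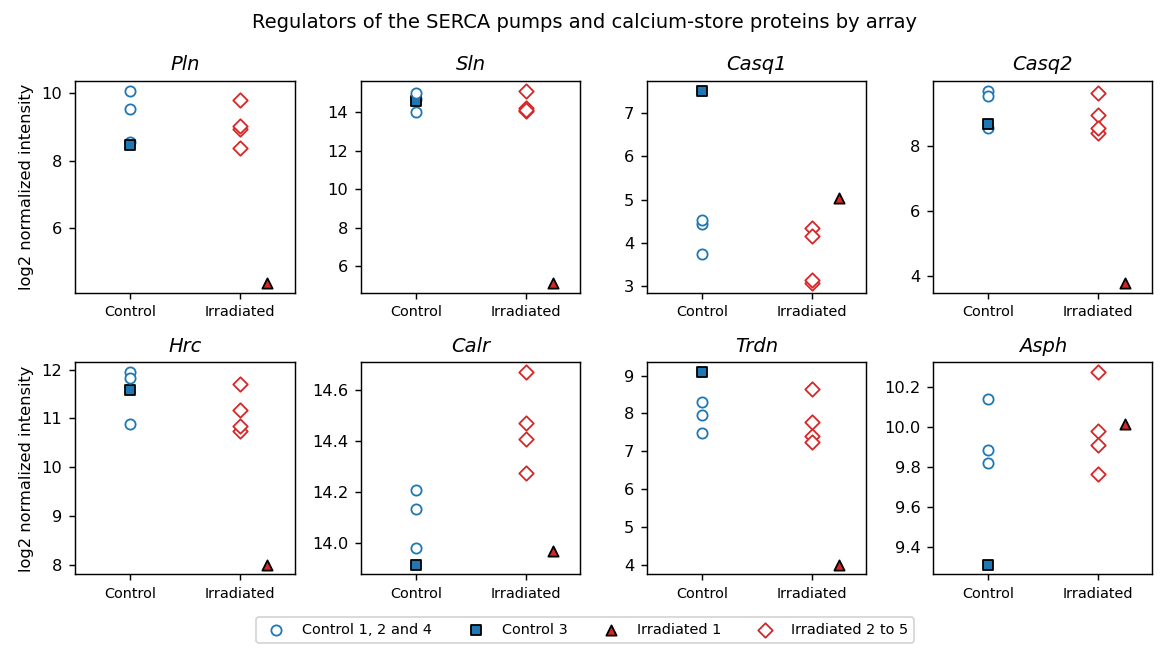
Log2 normalized intensity of 8 regulators of the SERCA pumps and calcium-store proteins on each array, with control arrays at left, irradiated arrays at right and Irradiated 1 set further right. Pln, Sln, Casq2, Hrc and Trdn are lowest on Irradiated 1 (Sln at 5.12), Casq1 is highest on Control 3 at 7.51, and Asph and Calr are neither lowest on Irradiated 1 nor highest on Control 3.

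Away from the stores, 2 further genes spanned over 2 log2 units, each through a single control array. Jph1, a junctophilin that holds the stores of skeletal muscle to the surface membrane, was at 8.16 on Control 1 and at 3.08, 4.92 and 4.62 on Control 2 to 4, with 3.59, 3.54, 3.64, 4.12 and 3.69 on the irradiated arrays. Trpc4, a cation channel of smooth muscle and endothelium, was at 6.89 on Control 1 and at 4.40, 4.74 and 3.98 on Control 2 to 4, with 4.02, 4.35, 5.22, 4.82 and 3.43 on the irradiated arrays. Neither was well above background on every array.

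With the position pair as a fixed block, 3 of the 47 genes passed the threshold, all lower in irradiated arrays, where 1.56% of all genes did so. They are named here after their values were seen. Atp2b2, a calcium pump of the plasma membrane, differed by -1.03 within pairs (adjusted p = 0.0273), with pair differences of -0.80, -1.31, -1.07 and -0.91, but was at 10.06 on Irradiated 1, among the controls at 9.22 to 10.36. Atp2c2, a calcium and manganese pump of the Golgi in secretory epithelium, differed by -0.70 (adjusted p = 0.0431), and Irradiated 1, at 8.17, likewise lay within the control range of 8.15 to 8.73. Jph4, a junctophilin of brain, differed by -0.81 (adjusted p = 0.0479) and was not well above background on 5 arrays. With the pair as a random block, where 9.44% of all genes passed and 5.64% passed with higher values, these 3 genes passed and 2 more did, with higher values: Calr (calreticulin) at 0.36 (adjusted p = 0.0449) and Calm3 (a calmodulin gene) at 0.31 (adjusted p = 0.0141). With all arrays and no block, the differences of Atp2b2, Atp2c2 and Jph4 were -0.78, -0.60 and -0.80, with adjusted p of 0.491, 0.241 and 0.456.

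Store-operated entry, which refills empty stores through Stim sensors and Orai pores, showed no gene past the threshold among 5 with all arrays, and its mean stayed between -0.15 and 0.16 on all 9 arrays. The same held for the 3 genes of the mitochondrial uniporter, with a mean between -0.09 and 0.23, and for the 7 genes of calmodulin and its kinases, with a mean between -0.09 and 0.08.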

How the data were processed

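The deposited data were scanner output of 9 one-color Agilent mouse whole genome arrays. Per the file headers, the authors' intensity values came from Agilent Feature Extraction (version and genome build not given in the sources used here) and were not normalized between arrays. The spot marks, positions and a table of normalized intensity values were also deposited by the authors. The labels name Cy5, whereas the files hold green-channel columns. The members and lists were chosen with earlier results of these data known.

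Control features and outlier-flagged spots were removed. A probe was kept (39303 of 39429) if its signal exceeded the local background 1.4-fold on 4 or more of the 9 arrays. Processed signals were put on the log2 scale, quantile normalized, and averaged over the spots of a probe. The accessions of 26049 probes (66.1%) gave 19747 symbols through a RefSeq table of GRCm38.p6, used for names and promoters. A gene was its brightest probe, and 11 of the 34 members had several. On each array 72.8% to 89.1% of the spots carried the well-above-background mark and none the saturation mark. Precision is limited by how few arrays there are.

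Groups were compared with limma 3.58.1 (R 4.3.3) with an intensity trend and no covariate, and p-values were adjusted over all probes kept. The fit without a block was tested on simulated arrays that vary independently. That test does not cover the pair blocks or arrays that stand apart. Deviations from group means correlated across genes at 0.20 to 0.45 within position pairs and at -0.17 to 0.062 between arrays of the same number, so the numbers do not pair arrays. All members were named, with values on every array where the probe was well above background on all 9 or spanned over 2 log2 units within a group, and listed genes of calcium handling where they spanned over 2 or passed the threshold.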

Additional observations from a re-analysis of the deposited data

Results flagged for a closer look

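In each group of arrays, the highest or lowest value was compared with its nearest neighbor by Dixon's ratio. Of 100 groups (42 genes and 8 marker lists, in control and irradiated arrays), 13 held a value that stood apart at the 95% level, where chance gives about 5%. These shares cannot be set against each other, since 8 of the 42 genes were named for a span over 2 log2 units within a group, Pln, Sln, Casq2, Hrc and Jph1 among them. Of the 13 values, 8 were on Irradiated 1 and 1 on Control 3. They are not independent, since members and marker lists share arrays.

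On Irradiated 1, Atp2a2 was low at 11.21 (the other irradiated arrays at 13.06 to 13.76), and so were Pln at 4.37 (8.36 to 9.79), Sln at 5.12 (14.05 to 15.13), Casq2 at 3.79 (8.41 to 9.63), Hrc at 8.01 (10.75 to 11.71) and the mean of the cardiac muscle list at -5.38 (-0.46 to 0.37). On the same array, Atp2a3 was high at 12.79 (12.02 to 12.09), and Cacng5 was high at 4.61 (1.97 to 2.71), where it was not well above background. On Control 3, the mean of the skeletal muscle list was high at 4.26 (the other controls at -1.79 to -1.13).

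Cacnb2 was high on Irradiated 5 at 7.38 (6.86 to 7.00), where the mean of the skeletal muscle list was also the highest of the irradiated arrays at -0.89 (-1.44 to -1.30). Cacnb4 was low on Irradiated 3 at 5.90 (6.51 to 6.72). Jph1 was high on Irradiated 4 at 4.12 (3.54 to 3.69).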

How the results depend on the processing

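The count of members past the threshold was 0 with all arrays. It was 1 without Irradiated 1 and between 0 and 1 when single arrays were left out, 1 with both Irradiated 1 and Control 3 left out, 1 with the position pair as a fixed block (3.84% of all genes) and 4 with it as a random block (2 higher, 2 lower, against 9.44% of all genes), and 0 in every other setting. For the 47 calcium-handling genes it was 0, with 3 under the fixed and 5 under the random block. The median difference of the members moved from -0.12 to -0.25 with scaling to the 75th percentile, which moved the median of all genes from 0.008 to -0.034, and lay between -0.15 and -0.066 with single arrays left out. The median of the calcium-handling genes moved from -0.046 to -0.12 with that scaling and to -0.014 when the probes of a gene were averaged. The replicate number as a block called 0 members (0 calcium-handling genes), with a lowest adjusted p of 0.487 among members, and changed no call. The cause of these shifts was not tested.

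Of the 34 members, 16 kept their sign in each of 21 alternatives, 11 lower and 5 higher. None of the sign changes of the other 18 passed the threshold. With scaling to the 75th percentile they were Cacna1c -0.089, Cacna2d3 -0.23, Cacng4 -0.26 and Cacng8 -0.087. With normexp background correction (offset 50) they were Cacna2d3 -0.066, Cacna2d4 0.016, Cacnb4 0.016, Cacng2 -0.047, Cacng3 0.040, Cacng4 -0.051 and Cacng5 0.11. With the authors' normalized table they were Cacna2d3 -0.10, Cacng3 0.017, Cacng5 0.39 and Cacng8 -0.56. Without both Irradiated 1 and Control 3 they were Cacna1s 0.28, Cacna2d3 -0.057, Cacng1 0.042, Cacng4 -0.075 and Ryr1 0.17. Under the fixed pair block they were Cacna1s 0.20 and Cacng4 -0.0013, under the random block Cacna1s 0.12, with array weights Cacna1s 0.10 and Cacna2d3 -0.060, and with all probes of a gene averaged Cacna1s 0.21 and Cacna2d2 0.016. Under the replicate block they were Cacna2d1 -0.0015, Cacna2d3 -0.087, Cacng4 -0.10, Cacng5 0.087, Cacng7 0.00064 and Cacng8 -0.29.

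With single arrays left out, the difference ranged from -0.14 to 0.20 for Cacna1s, -0.32 to 0.012 for Cacna1b, -0.47 to 0.19 for Cacna1e, -0.067 to 0.11 for Cacna2d1, -0.13 to 0.19 for Cacna2d3, -0.13 to 0.029 for Cacna2d4, -0.030 to 0.42 for Cacnb2, -0.16 to 0.062 for Cacnb4, -0.66 to 0.14 for Cacng1, -0.64 to 0.38 for Cacng3, -0.10 to 0.24 for Cacng4, -0.54 to 0.12 for Cacng5, -0.29 to 0.020 for Cacng7, -0.29 to 0.46 for Cacng8 and -0.54 to 0.13 for Ryr1. Signal near background limits the 7 dim members. A filter asking for signal 1.4-fold over background on all 9 arrays, no filter and a variance without intensity trend changed no call and no sign, but the first of these left 4 dim members without a value.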
